A study of Mus musculus with 6 samples.

Results

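Cohesin is a ring-shaped protein complex that entraps DNA, and CTCF is the zinc finger protein that marks where the ring halts. Here the genes of the core machinery were followed in NMuMG cells treated with TGFβ. The 9 genes were chosen by name from the 21240 genes of the count table: Smc1a, Smc3 and Rad21, which encode the body of the ring, Stag1 and Stag2, which encode its alternative SA subunits, Nipbl, which encodes the loader, Pds5a and Pds5b, which encode regulatory subunits of the ring, and Ctcf. NMuMG is an epithelial cell line from the mouse mammary gland, and all libraries came from this single line. Cells were kept without serum for 6 h and then received vehicle for 2 h, TGFβ1 at 5 ng/ml for 2 h, or TGFβ1 at 5 ng/ml for 12 h. By the study's methods, insulin was withdrawn from these cells together with serum. Each group had 2 biological replicates, which gave 6 libraries of total RNA. The labels describe the vehicle in more than 1 way, as HCl with BSA and as Tris-HCl with BSA. Vehicle cells were collected at 2 h only, so that in the 12 h comparison TGFβ and a longer time without serum and insulin cannot be told apart.

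In the interphase nucleus cohesin extrudes loops of chromatin until it meets CTCF bound to DNA, and the borders of topologically associating domains form at such places. NIPBL, with its partner MAU2, drives loading and extrusion, PDS5 proteins and WAPL promote release, and ESCO enzymes acetylate SMC3. In dividing cells the same ring holds sister chromatids together until separase cuts RAD21. The question that these values address is whether the genes of this machinery changed in RNA level while TGFβ changed the expression of many other genes. Only RNA was measured here, and protein levels and binding to chromatin were not analysed here.

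The deposited values are raw read counts, with 14705886 to 23786993 counts per library. They were converted to CPM, the usual count scaled to library depth, with TMM factors of 0.961 to 1.07. A gene was tested if 2 or more libraries reached 2 CPM, which left 11080 genes. All adjusted p-values below come from the quasi-likelihood test of edgeR with Benjamini-Hochberg adjustment over all tested genes, two-sided, and a gene was called at an adjusted p under 0.05. All 9 genes passed the filter, with 828 to 5520 counts per library, so that counting error was 1.35% to 3.48% of a value and smaller than most differences between replicates. The known TGFβ targets Junb, Smad7 and Skil rose at both times, by a log2 fold change (log2FC) of 2.07 to 3.51 at 2 h and 2.21 to 3.99 at 12 h. Of 8 epithelial markers, Krt8, Krt18, Krt19 and Cdh1 were abundant (in vehicle Krt8 was at 1073 ± 82.3 and Cdh1 at 392 ± 41.0 CPM, SD, n = 2). At 12 h Krt8 (log2FC 1.63), Krt18 (1.53) and Krt7 (1.61) were called higher and Krt19 (−1.95) lower, while Cdh1 was at −0.08. The others were low: Krt7 did not exceed 5.18 CPM, Epcam did not exceed 0.697 CPM, and Cldn3 and Cldn7 did not exceed 0.353 CPM in any library. Of the markers of other cell types, the summed level over 3 adipocyte markers was at most 0.0504 CPM, over 3 endothelial markers at most 1.95 CPM and over 4 immune markers at most 6.81 CPM. The 5 fibroblast markers summed to 3.50 to 4.00 CPM in vehicle and to 14.6 to 14.8 CPM at 12 h. Between these groups Col1a1 averaged 0.960 and 10.9 CPM, Pdgfra 2.46 and 2.63 CPM and Dcn 0.326 and 0.0218 CPM. Pdgfrb had 0 counts in vehicle and was at 0.958 and 1.33 CPM at 12 h, and Lum did not exceed 0.0506 CPM. Without the TMM factors, the median log2FC of all tested genes was lower by 0.111 at 2 h and by 0.129 at 12 h, so small changes below are relative to the TMM scale. The share of higher genes among those called was then 46.7% in place of 65.4% at 2 h and 37.5% in place of 50.3% at 12 h.

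At 2 h edgeR called none of the 9 genes, and neither did limma-voom or DESeq2, although 9.91% of the tested genes were called higher and 5.25% lower. At 12 h only Rad21 was called, and it was lower, against 21.8% of the tested genes called higher and 21.5% lower. Limma-voom also called 1 of the 9 genes at 12 h, whereas DESeq2, total counts without TMM factors and a fit of only the 2 groups each called 3, all lower (Rad21, Smc1a and Pds5b). Of the 11080 tested genes, DESeq2 called 2494 lower, total counts without TMM factors 3047 and the fit of only the 2 groups 2800, in place of 2385. Between 2 h and 12 h Rad21 was again the only gene called, lower at 12 h, against 15.2% of the tested genes called higher and 18.9% lower. The median absolute log2FC of the 9 genes was 0.09 at 2 h and 0.20 at 12 h, and over all tested genes it was 0.24 and 0.39. The 95% intervals of all 9 genes at 2 h lay between −0.80 and 0.48, which is inside a 2-fold change in either direction. At 12 h the interval lay inside a 2-fold change for 8 of 9 genes, and that of Rad21 reached −1.06. At 12 h 7 of the 9 log2FC were below 0, as were 48.8% of those of all tested genes. Without the TMM factors 8 of 9 were below 0, where Stag1 changed sign. On that scale the median log2FC of all tested genes was itself −0.115 at 12 h. At 2 h 6 of 9 were below 0, as were 51.0% of all. Without the TMM factors 8 of 9 were below 0, where Ctcf and Rad21 changed sign, and the median log2FC of all tested genes was −0.12. Under these settings no other gene of the 9 changed sign, except that Pds5a came to 0.00 at 2 h.

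**Figure D1:**
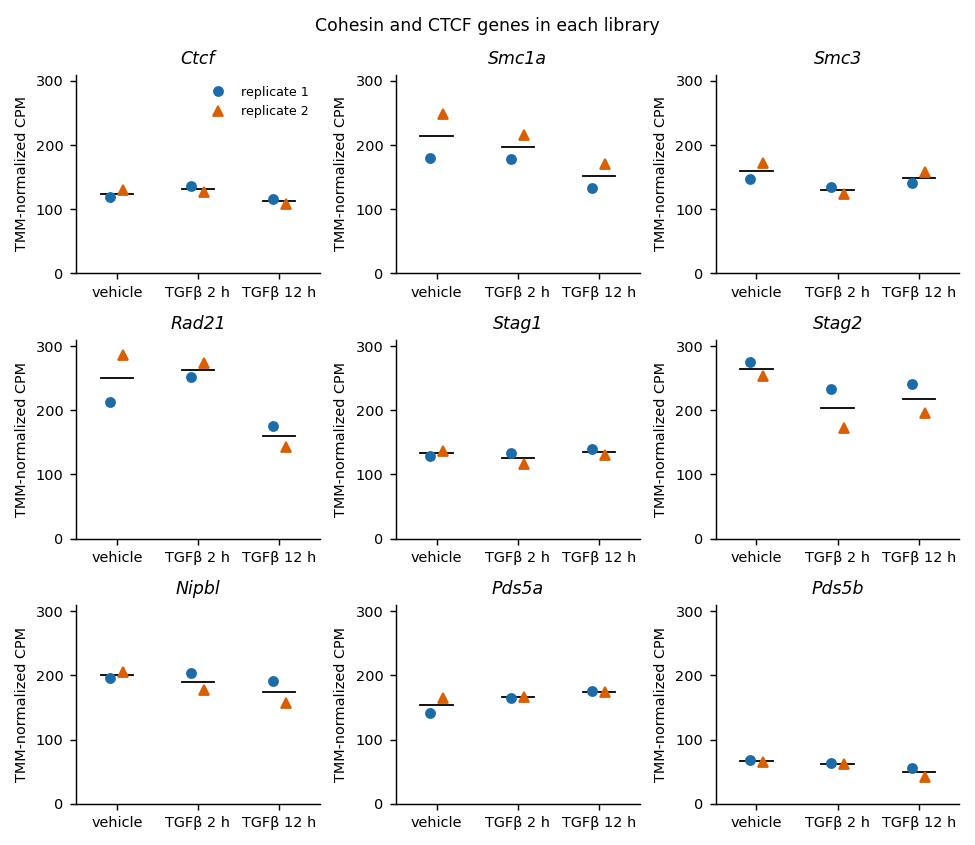
Level of the 9 cohesin and CTCF genes in each library, in TMM-normalized CPM on a common axis from 0, with circles for replicate 1, triangles for replicate 2 and a line at the group mean. Both 12 h libraries of Rad21 (176 and 143 CPM) lie below its 4 other libraries, and the same holds for Smc1a, Pds5b and Ctcf.

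Where the groups were compared by their ranges alone, the libraries of 4 of the 9 genes did not overlap between 2 h and vehicle, against 55.9% of the tested genes. The same held for 7 of 9 genes between 12 h and vehicle, against 76.8%, and for 6 of 9 between 12 h and 2 h, against 69.0%. These shares lie near those of all tested genes. With 2 libraries a group, an exact permutation test over libraries cannot give a p below 0.333, so single values are described here and the tests come from the fit across all genes.

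The study's methods name no pairing of the libraries. Those with the same replicate number deviated together between vehicle and 2 h (correlation 0.708), and less so with 12 h (0.263 and 0.392). A fit with the replicate number as a block, which assumes such pairing, called more genes. With the replicate block 1 of 9 genes was called at 2 h (Stag2), 4 at 12 h (Rad21, Smc1a, Pds5b and Stag2) and 3 between 12 h and 2 h (Rad21, Smc1a and Pds5b). All of these calls were lower. In that fit 12.7% of the tested genes were called lower at 2 h, 27.5% at 12 h and 25.2% between 12 h and 2 h. The fold changes of both fits are given side by side below.

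**Figure D2:**
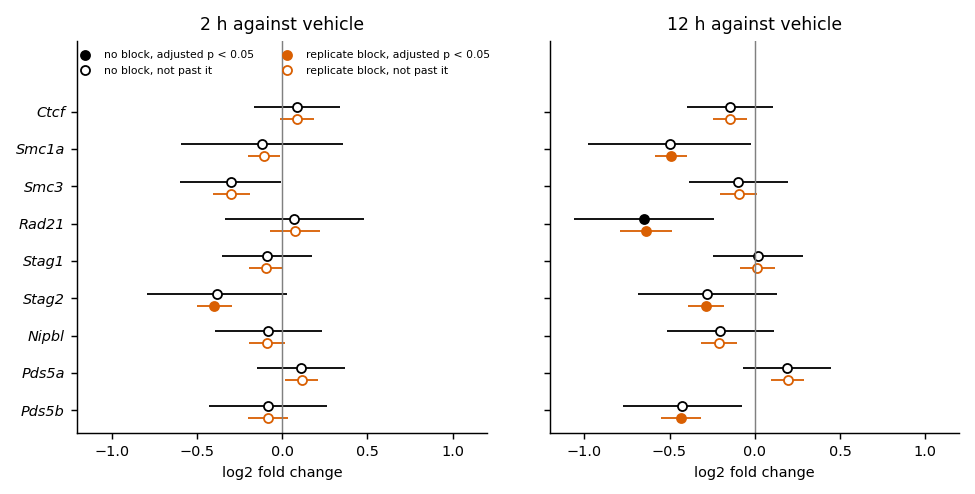
The log2 fold change of each gene at 2 h (left) and 12 h (right) against vehicle, with its 95% interval in the fit without a block (black) and its standard error in the fit with the replicate block (orange), and filled points for an adjusted p under 0.05. Rad21 is the only filled black point, at −0.65 at 12 h, and Smc1a, Pds5b and Stag2 are filled at 12 h only in the fit with the block.

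Rad21 encodes the kleisin subunit that closes the ring and is cut by separase at anaphase. It lies on chromosome 15, minus strand, 51794151 to 51823306 (NCBIM37, mm9). Its level was 213 and 286 CPM in the vehicle libraries, 251 and 274 CPM after 2 h and 176 and 143 CPM after 12 h. The 12 h libraries were the lowest of the 6, and the 2 h libraries lay within the range of vehicle. At 12 h the log2FC against vehicle was −0.65 ± 0.17 (SE, 95% interval −1.06 to −0.24, fold 0.638, adjusted p = 0.0221), and with the replicate block it was −0.64 (adjusted p = 0.0056). Against 2 h it was −0.72 ± 0.17 (SE, adjusted p = 0.0191, with the block 0.00368). At 2 h it was 0.07 ± 0.17 (SE, 95% interval −0.34 to 0.48, adjusted p = 0.812). Single libraries decided the call at 12 h: without vehicle replicate 2 the log2FC was −0.42 (adjusted p = 0.121), and without 12 h replicate 2 it was −0.52 (adjusted p = 0.136). The call against 2 h was lost without either 12 h library, at −0.89 (adjusted p = 0.0553) without replicate 1 and at −0.59 (adjusted p = 0.131) without replicate 2. The direction at 12 h was lower in every one of these fits. Of its neighbors in gene order, Utp23 had a log2FC of 0.14 at 12 h (adjusted p = 0.454), and Aard did not pass the filter.

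Smc1a and Smc3 encode the ATPase subunits that pair at the hinge of the ring, Smc1a on chromosome X (148450971 to 148497237, plus strand) and Smc3 on chromosome 19 (53674886 to 53720323, plus strand; NCBIM37). Smc1a stood at 180 and 248 CPM in vehicle, 178 and 216 CPM at 2 h and 133 and 170 CPM at 12 h. Replicate 2 was higher in each of the 3 groups, and both 12 h libraries were below both vehicle libraries. The log2FC of Smc1a at 12 h was −0.50 ± 0.20 (SE, 95% interval −0.98 to −0.02), which was not called without the block (adjusted p = 0.0848) and was called with it (log2FC −0.49, adjusted p = 0.00168). Without 1 library it ran from −0.25 (vehicle replicate 2 left out, adjusted p = 0.409) to −0.71 (vehicle replicate 1 left out, adjusted p = 0.0449). Between 12 h and 2 h it was −0.38 (adjusted p = 0.185), or −0.39 with the block (adjusted p = 0.00797). At 2 h it was −0.12 (95% interval −0.60 to 0.36, adjusted p = 0.732).

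Smc3 had another time course. It was at 147 and 171 CPM in vehicle, 135 and 124 CPM at 2 h and 140 and 158 CPM at 12 h. Both 2 h libraries were below the other 4, and the 12 h libraries overlapped vehicle. At 2 h the log2FC was −0.30 ± 0.12 (SE, 95% interval −0.60 to −0.01, adjusted p = 0.158, and 0.0678 with the block). Of the 9 genes, Smc3 alone had an unadjusted p under 0.05 at 2 h. At 12 h the log2FC was −0.10 (95% interval −0.39 to 0.20, adjusted p = 0.562).

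Stag1 and Stag2 encode the SA subunits, of which each ring carries only a single one. Stag1 lies on chromosome 9 (100498217 to 100858964, plus strand) and Stag2 on chromosome X (39502494 to 39630362, plus strand; NCBIM37). Stag2 was at 275 and 254 CPM in vehicle, 233 and 173 CPM at 2 h and 240 and 196 CPM at 12 h. Its replicate 1 was the higher in each group, and all 4 TGFβ libraries were below both vehicle libraries. The log2FC of Stag2 was −0.38 ± 0.17 (SE, adjusted p = 0.195) at 2 h and −0.28 ± 0.17 (SE, adjusted p = 0.235) at 12 h. With the block it was called at both times, at −0.40 (adjusted p = 0.0188) and −0.29 (adjusted p = 0.0401). At 2 h it was −0.19 without 2 h replicate 2 (adjusted p = 0.513) and −0.63 without 2 h replicate 1 (adjusted p = 0.032), and at 12 h it ran from −0.45 without 12 h replicate 1 to −0.15 without 12 h replicate 2. Stag1 was at 129 and 137 CPM in vehicle, 134 and 116 CPM at 2 h and 139 and 130 CPM at 12 h, with overlapping groups throughout. Its log2FC was −0.09 (95% interval −0.36 to 0.18, adjusted p = 0.638) at 2 h and 0.02 (95% interval −0.25 to 0.28, adjusted p = 0.92) at 12 h.

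Nipbl, which encodes the loader, lies on chromosome 15 (8241225 to 8394463, minus strand; NCBIM37). It was at 197 and 205 CPM in vehicle, 203 and 177 CPM at 2 h and 192 and 158 CPM at 12 h. Both 12 h libraries were below both vehicle libraries, and the 2 h libraries overlapped vehicle. The log2FC was −0.08 (95% interval −0.40 to 0.23, adjusted p = 0.723) at 2 h and −0.20 (95% interval −0.52 to 0.11, adjusted p = 0.257) at 12 h.

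The PDS5 genes both lie on chromosome 5, Pds5a at 66006499 to 66089095 on the minus strand and Pds5b at 151476314 to 151613265 on the plus strand (NCBIM37). Pds5b was at 67.5 and 65.4 CPM in vehicle, 63.9 and 61.6 CPM at 2 h and 56.4 and 42.5 CPM at 12 h. Both 12 h libraries were below the other 4. The log2FC at 12 h was −0.43 ± 0.15 (SE, 95% interval −0.78 to −0.08, adjusted p = 0.0545), and with the block it was −0.43 (adjusted p = 0.0112). It was −0.25 without 12 h replicate 2 (adjusted p = 0.215) and −0.66 without 12 h replicate 1 (adjusted p = 0.0236). Between 12 h and 2 h it was −0.34 (adjusted p = 0.116, with the block −0.35, adjusted p = 0.0328). At 2 h it was −0.08 (95% interval −0.43 to 0.27, adjusted p = 0.747). Pds5a, the paralog, was at 142 and 165 CPM in vehicle, 165 and 167 CPM at 2 h and 176 and 174 CPM at 12 h. Both 12 h libraries were the highest of the 6. Its log2FC was 0.11 (95% interval −0.15 to 0.37, adjusted p = 0.536) at 2 h and 0.19 ± 0.11 (SE, 95% interval −0.07 to 0.45, adjusted p = 0.2) at 12 h, and it was not called in either fit.

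Ctcf, whose protein stops extruding cohesin in an orientation-dependent manner, lies on chromosome 8 (108160468 to 108206822, plus strand; NCBIM37). It was at 118 and 130 CPM in vehicle, 137 and 127 CPM at 2 h and 116 and 108 CPM at 12 h. The 2 h libraries overlapped vehicle, and the 12 h libraries were just below it. The log2FC was 0.09 (95% interval −0.16 to 0.34, adjusted p = 0.627) at 2 h, −0.14 (95% interval −0.40 to 0.11, adjusted p = 0.309) at 12 h and −0.23 (95% interval −0.48 to 0.02, adjusted p = 0.135) between 12 h and 2 h.

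Levels between genes were compared per length, as reads per kilobase of exon scaled to depth in the same way (RPKM), over the union of annotated exons. In vehicle Rad21 was the highest of the 9, at 69.3 ± 14.2 RPKM (SD, n = 2 here and below), above 93.4% of the tested genes with a length. Smc1a (37.1 ± 8.31), Pds5a (36.9 ± 3.89) and Stag2 (32.0 ± 1.80 RPKM) followed. Smc3 (28.7 ± 3.05), Ctcf (25.5 ± 1.63) and Nipbl (22.8 ± 0.698 RPKM) came next. Stag1 (12.9 ± 0.558) and Pds5b (7.07 ± 0.157 RPKM) were the lowest, Pds5b above 38.2% of the tested genes. Replicate ranges of neighbors in this order overlapped for Smc1a and Pds5a, for Stag2 and Smc3, and for Smc3 and Ctcf. Over the union of exons Rad21 stood apart from the next gene, and so did Stag1 and Pds5b from those above them. At 12 h Rad21 (44.2 ± 6.40 RPKM) and Pds5a (42.1 ± 0.442 RPKM) overlapped at the top. With the length of the longest transcript in place of the union, Rad21 stayed first and Pds5b last in each group. The order between them depended on the length: with the longest transcript Stag1 came to 21.5 RPKM in vehicle beside 22.8 for Nipbl and ranked above it at 12 h, and Stag2 ranked above Pds5a in vehicle. By the study's methods the counts were summed over UCSC KnownGene exons, whereas these lengths come from GENCODE. The annotated exons of Pds5a cover 4160 bases, of which 4010 are coding, and those of Nipbl 8815 bases with 8394 coding. Those of Pds5b cover 9397 bases with 4413 coding. The places of Pds5a and Nipbl in the order, and the level of Pds5a relative to Pds5b, therefore depend on how much untranslated sequence the annotation holds for each.

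Ratios between partner genes do not depend on that limit when the same ratio is compared across groups. The RPKM ratio of Pds5a to Pds5b was 4.76 and 5.70 in vehicle, 5.83 and 6.11 at 2 h and 7.06 and 9.23 at 12 h. Both 12 h libraries were above the other 4, with a geometric mean of 8.08 at 12 h against 5.21 in vehicle. The ratio of Stag2 to Stag1 was 2.65 and 2.30 in vehicle, 2.17 and 1.85 at 2 h and 2.15 and 1.87 at 12 h, so that vehicle was highest. Smc1a to Smc3, whose proteins pair in equal number, was 1.17 and 1.39 in vehicle, 1.27 and 1.68 at 2 h and 0.908 and 1.04 at 12 h. Rad21 to Smc3 was 2.23 and 2.57 in vehicle, 2.87 and 3.41 at 2 h and 1.93 and 1.39 at 12 h, with no overlap between groups. Of 7 ratios computed, these 4 and that of Ctcf to Rad21 did not overlap between 12 h and vehicle, with an exact two-sided permutation p of 0.333, the smallest that 2 against 2 libraries allow. Over single genes, which are an unlike measure, 76.8% of those tested did not overlap between these groups. The share over ratios of other gene pairs was not computed, and the ratios shown share genes. The ratio of Rad21 to Smc1a, at 1.90 and 1.85 in vehicle and 2.12 and 1.35 at 12 h, did overlap, and so did that of Nipbl to Smc3, at 0.839 and 0.754 in vehicle and 0.860 and 0.628 at 12 h (exact permutation p = 1 for both). The ratio of Ctcf to Rad21 was 0.411 and 0.336 in vehicle and 0.491 and 0.561 at 12 h.

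**Figure D3:**
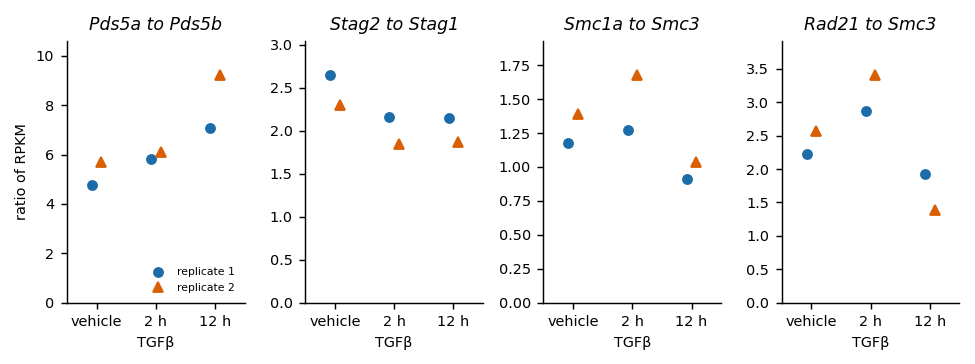
Ratio of the RPKM of 4 pairs of cohesin genes in each library, with circles for replicate 1, triangles for replicate 2 and each vertical axis starting at 0. Pds5a to Pds5b is highest in the 12 h libraries (7.06 and 9.23), and Smc1a to Smc3 and Rad21 to Smc3 are lowest there.

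The sequences upstream of 3 genes are shown: Pds5a and Pds5b, the pair whose ratio shifted most at 12 h, and Ctcf, the only member that is not part of the ring or its loading. They are the 250 bases before the annotated start, 5′ to 3′ on the gene's strand, from RefSeq on GRCm38.p6, a later build than that of the positions given for the genes. Of the 9 genes 6 were matched in that table, and Rad21, Stag2 and Nipbl were not. Capitals mark any match, on either strand, to a searched motif. These were the octamers TTTCCCGC, TTTGGCGC, TTTCGCGC or TTTGGGGC, the CHR element TTTGAA of cell cycle genes, and the SMAD box CAGAC. The octamers are called E2F octamers here, although TTTGGGGC lacks the CGC end that the others share. The windows are chr8:105636288-105636537 (plus strand) for Ctcf, chr5:65698237-65698486 (minus strand) for Pds5a and chr5:150673577-150673826 (plus strand) for Pds5b.
Ctcf: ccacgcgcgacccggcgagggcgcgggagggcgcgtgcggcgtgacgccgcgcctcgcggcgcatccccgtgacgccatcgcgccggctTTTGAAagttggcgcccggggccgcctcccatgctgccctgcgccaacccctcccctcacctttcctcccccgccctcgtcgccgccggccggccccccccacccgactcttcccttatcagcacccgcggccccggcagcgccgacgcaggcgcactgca
Pds5a: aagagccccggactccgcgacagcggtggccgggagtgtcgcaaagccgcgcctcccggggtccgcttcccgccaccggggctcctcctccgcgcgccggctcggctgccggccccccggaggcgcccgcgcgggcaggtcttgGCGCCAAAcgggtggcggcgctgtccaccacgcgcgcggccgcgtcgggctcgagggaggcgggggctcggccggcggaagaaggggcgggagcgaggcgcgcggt
Pds5b: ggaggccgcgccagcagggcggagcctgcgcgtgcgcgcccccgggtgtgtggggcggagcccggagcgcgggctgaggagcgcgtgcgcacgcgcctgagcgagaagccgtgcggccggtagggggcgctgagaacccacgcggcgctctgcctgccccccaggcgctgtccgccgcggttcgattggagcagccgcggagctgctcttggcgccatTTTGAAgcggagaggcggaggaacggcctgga
The capitals in Pds5a are an E2F octamer read on the opposite strand, and those in Ctcf and Pds5b are the CHR letters. The motifs were chosen after the values had been seen. Of 32851 promoters in the table, 2.56% held an E2F octamer, 16.0% the CHR letters and 42.2% the SMAD box in a window of the same length. None of the 3 windows shown held the SMAD box, and those of Smc1a, Smc3 and Stag1 held 1 match each. The window of Stag1 also held an E2F octamer. A match describes letters only. The windows were rich in CpG, with 40 CpG in Ctcf, 44 in Pds5a and 36 in Pds5b against a median of 6 over all promoters. Smc3 had 26, Stag1 31 and Smc1a 16.

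A list of regulators that act on cohesin gave larger changes at 12 h. Of 12 cohesin regulators tested, edgeR called none at 2 h, where 1 (Wapl) had an unadjusted p under 0.05, limma-voom called 0 and DESeq2 called 1. Over all 11080 tested genes DESeq2 called 1297 higher and 794 lower at 2 h. The replicate block called Wapl higher and Sgo2a lower at 2 h, against 1813 of the tested genes called higher and 1409 lower. At 12 h 8 were called lower and 1 higher, against 21.5% and 21.8% of the tested genes, with a median log2FC of −3.07, against a median of 0.02 over all tested genes and −0.20 over the 9 cohesin and CTCF genes. Esco2, which acetylates SMC3 during replication, fell from 12.0 and 24.6 CPM in vehicle to 0.305 and 0.308 CPM at 12 h (log2FC −5.87 ± 0.54, SE, adjusted p = 0.000316). Plk1, a kinase that helps to remove cohesin from chromosome arms in mitosis, fell from 25.1 and 59.1 CPM in vehicle to 0.653 and 0.770 CPM (log2FC −5.88, adjusted p = 0.000601). The shugoshin genes Sgo1 (−5.57) and Sgo2a (−4.44), which protect centromeric cohesin, fell as well. So did Espl1 (−5.31), which encodes separase, Pttg1 (−3.21), which encodes its inhibitor securin, Cdca5 (−2.93), which encodes sororin, and Haspin (−2.35).

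The other 4 regulators of the list were 1 called higher and 3 not called. Wapl, which encodes the release factor, was at 146 and 157 CPM in vehicle and at 193 and 216 CPM at 12 h, and it rose (log2FC 0.43 ± 0.11, SE, adjusted p = 0.022). At 2 h it was 0.37 (adjusted p = 0.0791, with the block 0.0257). Mau2, the partner of Nipbl, was at 0.15 at 12 h (adjusted p = 0.257). Esco1, the other acetyltransferase, was at −0.06 (adjusted p = 0.88), and Hdac8, which removes the acetyl group from SMC3, was at −0.23 (adjusted p = 0.37).

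**Figure D4:**
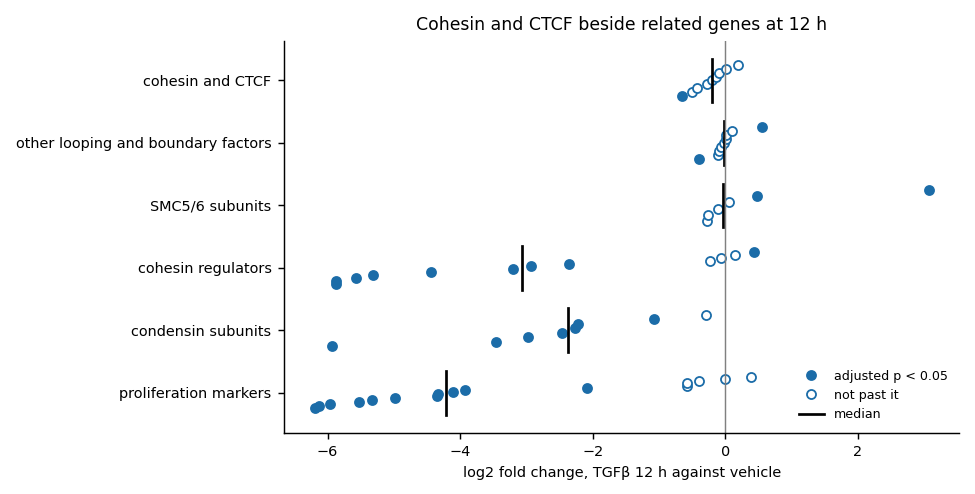
The log2 fold change at 12 h against vehicle of the 9 cohesin and CTCF genes and of the genes of 5 related lists, 1 point a gene, filled for an adjusted p under 0.05, with a black line at the median of each list. Cohesin and CTCF lie between −0.65 and 0.19, and the cohesin regulators and condensin subunits reach −5.88 and −5.93.

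Condensin is the SMC complex that compacts mitotic chromosomes. Of its 8 genes 7 fell at 12 h, against 21.5% of the tested genes called lower, with a median of −2.37, and with the block all 8 were called lower, against 27.5%. The log2FC was −5.93 for Ncapg (adjusted p = 0.000448), −3.47 for Ncapg2 (adjusted p = 0.00103), −2.98 for Ncapd2 (adjusted p = 0.00257) and −2.46 for Ncaph (adjusted p = 0.00212). Ncaph2, a subunit of condensin II, was at −0.29 (adjusted p = 0.136, with the block 0.0387). At 2 h edgeR, limma-voom and DESeq2 called none, and 1 (Smc4) had an unadjusted p under 0.05. The block called Ncapd3 lower at 2 h, against 12.7% of the tested genes called lower.

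In the SMC5/6 complex, which acts in DNA repair and replication, 2 of 6 genes rose at 12 h, against 21.8% of the tested genes called higher, and none was called lower, against 21.5%. Nsmce3, a MAGE-family subunit, was at 27.0 ± 4.50 CPM (SD, n = 2) in vehicle, 65.1 and 99.8 CPM at 2 h and 217 and 236 CPM at 12 h. Its groups did not overlap, and it rose by 1.61 on the log2 scale at 2 h (adjusted p = 0.00526) and by 3.07 at 12 h (adjusted p = 0.000164). Smc5 rose by 0.48 at 12 h (adjusted p = 0.00755), while its partner Smc6 was at −0.11 (adjusted p = 0.608). Between 12 h and 2 h Nsmce3 (log2FC 1.46, adjusted p = 0.0034) and Smc5 (0.51, adjusted p = 0.00806) were called higher and Nsmce1 lower (−0.43, adjusted p = 0.0416), against 15.2% of the tested genes called higher and 18.9% lower.

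Genes of other proteins that shape loops or boundaries had small log2FC. Of 9 such genes, 1 rose and 1 fell at 12 h, against 21.8% of the tested genes called higher and 21.5% lower, and the median was −0.03. Ldb1, which encodes an adaptor that brings enhancers and promoters together, was at 151 and 152 CPM in vehicle and 222 and 224 CPM at 12 h (log2FC 0.56, adjusted p = 0.00364). Maz, a zinc finger gene, was at 141 and 147 CPM in vehicle and 108 and 112 CPM at 12 h (log2FC −0.39, adjusted p = 0.0143). Yy1 (−0.06, adjusted p = 0.849) and Zfp143 (0.01, adjusted p = 0.98) were not called. At 2 h edgeR and limma-voom called none. DESeq2 called 1 higher, against 1297 of the 11080 tested genes. Both Ldb1 and Adnp had an unadjusted p under 0.05. The block called both higher at 2 h, against 1813 of the 11080 tested genes.

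The meiotic counterparts of cohesin and the CTCF paralog were at or near 0. Smc1b, Rad21l, Rec8 and Ctcfl had 0 counts in all 6 libraries, which allows up to 0.131 to 0.191 CPM at 3 counts a library. Stag3 was between 0.253 and 0.479 CPM. None of these 5 genes passed the filter. Intervals and limits of this kind cover counting error only.

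The summed level of 16 proliferation markers was 1081 and 2096 CPM in vehicle, 1149 and 2150 CPM at 2 h and 414 and 409 CPM at 12 h. In vehicle and at 2 h replicate 2 was the higher for this sum, for Rad21, for Smc1a and for Pds5a, and replicate 1 was the higher for Stag2 and Pds5b. The 2 h libraries of Pds5a were nearly equal. For Ctcf, Smc3, Stag1 and Nipbl the order of the replicates reversed between vehicle and 2 h. At 12 h the sum was lowest and close in the 2 libraries, where Smc1a was higher in replicate 2 and Rad21 in replicate 1. In vehicle Mki67 was at 354 ± 204 and Top2a at 306 ± 154 CPM (SD, n = 2). Of the 16 markers 11 fell at 12 h, against 21.5% of the tested genes called lower, with a median of −4.22, the largest being Bub1 (−6.19), Ccna2 (−6.13), Ccnb1 (−5.97) and Aurkb (−5.53), whereas Mcm7 was at 0.00 and Mcm6 at 0.38 (adjusted p = 0.207, called higher with the block, adjusted p = 0.0369). At 2 h edgeR, limma-voom and DESeq2 called none, and 0 had an unadjusted p under 0.05. The block called 1 lower at 2 h, against 12.7% of the tested genes called lower. The part of proliferating cells in the values of the cohesin genes was not tested. In bulk libraries fewer cells with a transcript and less of it per cell cannot be told apart.

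The genes most like Ctcf and Rad21 across the 6 libraries, by Pearson's r of log2 CPM with a pseudocount of 0.25 CPM, are given as a description. For Ctcf they were Kdm3b (r = 0.990), Lrp6 (0.975) and Nt5c (0.973), and 7 genes exceeded 0.95. For Rad21 they were Abhd10 (0.995), Apcdd1 (0.991) and Zadh2 (0.990), and 116 genes exceeded 0.95. The 6 points share their scaling and the 3 group means.

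Since the study asked how neighboring genes respond together, the genes next to each of the 9 were also read, after the values of the 9 were known. Of 18 adjacent positions 12 held a tested gene. At 2 h 1 of the 12 was called, higher, against 9.91% of the tested genes called higher and 5.25% lower. At 12 h 3 were called, 1 higher and 2 lower, against 21.8% and 21.5%. These shares are no larger than those of all tested genes. Dusp5, a MAP kinase phosphatase gene whose start lies 71.3 kb from that of Smc3, rose by 1.34 at 2 h (adjusted p = 0.0105) and by 2.95 at 12 h (adjusted p = 0.000158). Rbm20, 76.9 kb away on the other side of Smc3, fell by 1.87 at 12 h (adjusted p = 0.00728). Smc3 itself was not called between them at either time. Pccb, next to Stag1 with starts 437 kb apart, fell by 0.66 at 12 h (adjusted p = 0.00217). Ribc1 starts 0.133 kb from Smc1a, and its log2FC was 0.09 at 12 h (adjusted p = 0.842) where that of Smc1a was −0.50. The other tested neighbors had log2FC between −0.35 and 0.14 at 12 h.

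Reads of the 9 genes could be assigned with little loss to copies elsewhere in the genome. Of the 50-base windows along their exons, 96.7% (Smc3) to 100% were found once in the NCBIM37 genome. Together the 9 genes held 0.124% to 0.177% of all counts.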

How the data were processed

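RNA-seq of 6 libraries (3 groups of 2) was used. According to the study's methods, the authors filtered 50-base reads, aligned them to mm9 with subjunc, kept uniquely mapped reads, removed duplicates with SAMtools 0.1.19 and summed reads over exons with strand-specific featureCounts. Removing duplicates of single-end reads can lower the counts of abundant genes. The deposited values are raw counts, with no normalization.

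Counts were tested in R 4.3.3 with edgeR 4.0.16 (TMM, quasi-likelihood, 1 fit of 3 groups, at least 2 CPM in at least 2 libraries). The SE is the absolute log2FC divided by the square root of F. Script output was tested on simulated data. Deviations of same-numbered libraries correlated at 0.708 (vehicle and 2 h), 0.263 (vehicle and 12 h) and 0.392 (2 h and 12 h). Pairing by number is not named in the study's methods and was an assumption of the block fit. Alternatives used limma 3.58.1 (voom) and DESeq2 1.42.0, and are named in the closing section. Lengths, positions and unique windows came from GENCODE on NCBIM37 in Python 3.11.15.

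All 9 members are named. From each related list, called genes with the largest absolute log2FC, up to 4 a list and comparison, are named, as are uncalled genes that stand for their list, and other genes were chosen after their values were seen. The members and lists were chosen with earlier results of these data known. Total counts were 14705886 to 23786993, and the p-values measure the spread between biological replicates of 1 cell line. A further listed gene is not reported here.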

Additional observations from a re-analysis of the deposited data

How the results depend on the processing

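With the replicate block the number of the 9 genes called was 1 at 2 h, 4 at 12 h and 3 between 12 h and 2 h, in place of 0, 1 and 1. At 12 h it was 3 with DESeq2, 3 with total counts without TMM factors and 3 with only the 2 groups compared. Leaving out 1 library at a time gave 0 to 1 at 2 h, 0 to 3 at 12 h and 0 to 1 between 12 h and 2 h. It was 0 at 12 h without vehicle replicate 2 or 12 h replicate 2, and 3 without 2 h replicate 1. Of all tested genes, 3222 were called at 2 h with the block and 893 with only the 2 groups compared, in place of 1680. Without 1 library this count ran from 637 to 2200 at 2 h, from 2900 to 5419 at 12 h (4799 with all libraries) and from 1683 to 3821 between 12 h and 2 h (3775). Over the 5 related lists and the TGFβ targets together (55 genes tested), 11 genes were called at 2 h with the block, in place of 5, and 4 of both counts were TGFβ targets. A left-out library leaves its group with 1 library, which is assumed to vary like the others. The causes were not tested.

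Over 378 fits of single members under the alternatives (limma-voom, DESeq2, DESeq2 size factors, no TMM, no filter, 10 counts or more in every library, block, only 2 groups, 1 library left out), 355 kept the side of the threshold, 19 gained a call and 4 lost one, the 4 being those of Rad21 without 1 library. The sign changed in 14, none of them called, and no absolute log2FC exceeded 0.89. Counting error of a member's value was at most 3.48%.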
